A study of Mus musculus with 32 samples.

Results

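Genes of the integrated stress response were followed through the first cleavage of the mouse embryo, with and without inhibition of histone acetylation or deacetylation. The 10 genes were given by name (Atf4, Atf5, Ddit3, Atf3, Ppp1r15a, Trib3, Sesn2, Ddit4, Chac1 and Asns), and all 10 were found among the 55385 genes listed in each RNA library. RNA was measured in 8 groups of 2 libraries each, from B6D2F1/J × B6D2F1/J embryos fertilised in vitro and grown in KSOM medium, whose parents were 6 to 8 weeks old. In the A-485 experiment, embryos taken as zygotes or at the early or late 2-cell stage had received 10 µM A-485, an inhibitor of the acetyltransferases CBP and p300, or the solvent DMSO, from 4 to 20 h post insemination (hpi). In the TSA experiment, late 2-cell embryos had received 50 nM trichostatin A (TSA), an inhibitor of histone deacetylases, or DMSO, from 8 to 28 hpi. Zygotes were thus taken during exposure to A-485, early 2-cell embryos at its end, and late 2-cell embryos after A-485 had been washed away. In the A-485 experiment, sample titles of zygote and late 2-cell RNA libraries are written in another form than those of early 2-cell. No label says whether these stages were prepared together, so stage and a possible batch cannot be told apart between stages. RNA came from whole embryos in bulk, so that a change of RNA in every embryo cannot be told apart from a change in a share of the embryos. The labels do not say whether the 2 replicates of a group came from separate fertilisations, and p-values then measure only the spread between these libraries, which may be technical.

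The integrated stress response links several kinds of stress to the initiation of translation. The kinases HRI, PKR, PERK and GCN2 phosphorylate the alpha subunit of the initiation factor eIF2, which blocks its exchange factor eIF2B, lowers most protein synthesis and favours translation of the mRNA of ATF4. ATF4, a bZIP transcription factor, then switches on genes of amino acid supply and stress factors, among them Ddit3, which encodes the factor CHOP, and Ppp1r15a, which encodes the phosphatase subunit GADD34 that reverses eIF2 phosphorylation. ATF4 is controlled mainly through translation, so its mRNA level is not a measure of its protein or of the pathway's activity.

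Several of these genes carry a C/EBP-ATF response element (CARE) close to their start, and the promoter stretches that hold a known element are shown first. Letters were searched on both strands of the 250 bases before each RefSeq start site (build GRCm38.p6), with TGATGNAA as the CARE core, TGACGTCA as the cyclic AMP response element (CRE) and TGANTCA as the AP-1 site. No gene held matches to more than 1 of them, so none overlapped. A CARE core lay before Atf3 (chr1:191183406-191183473, minus strand), Chac1 (chr2:119351019-119351086, plus strand) and Asns (chr6:7693214-7693243, minus strand), a CRE before Ppp1r15a (chr7:45526269-45526310, minus strand) and an AP-1 site before Ddit3 (chr10:127290543-127290568, plus strand). The RefSeq start used for Atf3 lies inside its GENCODE M21 gene span (chr1:191170296-191218039). Bases before the 5′ end of that span were not searched. The capitals mark the match, and each stretch is written 5′ to 3′ along the gene.
Atf3: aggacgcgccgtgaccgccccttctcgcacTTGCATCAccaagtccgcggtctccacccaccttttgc
Chac1: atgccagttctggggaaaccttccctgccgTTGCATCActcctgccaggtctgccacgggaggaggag
Asns: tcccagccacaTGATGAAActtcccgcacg
Ddit3: cgcgcgcaTGACTCActcacctcctc
Ppp1r15a: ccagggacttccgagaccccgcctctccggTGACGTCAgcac
Of all 32851 RefSeq promoters of this length, 3.45% held the CARE core, 1.55% the CRE and 6.75% the AP-1 site. In the 11 promoters of the 10 genes (Atf5 has 2), the CARE core was found in 3, the CRE in 1 and the AP-1 site in 1, at Ddit3 236 to 242 bases before its start. The other 5 genes had none of these letters in this window, which says nothing on elements elsewhere. Among these were Atf4 and Trib3, whose 250 bases are given and both overlapped an open chromatin peak described later. Those of Sesn2, Ddit4 and Atf5 overlapped such a peak as well and are not printed.
Atf4 (chr15:80254934-80255183, plus strand): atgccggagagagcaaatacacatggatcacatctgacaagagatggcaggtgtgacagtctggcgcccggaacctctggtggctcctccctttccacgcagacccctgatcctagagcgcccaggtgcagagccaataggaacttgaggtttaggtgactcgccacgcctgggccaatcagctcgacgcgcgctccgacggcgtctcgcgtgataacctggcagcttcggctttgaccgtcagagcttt
Trib3 (chr2:152344061-152344310, minus strand): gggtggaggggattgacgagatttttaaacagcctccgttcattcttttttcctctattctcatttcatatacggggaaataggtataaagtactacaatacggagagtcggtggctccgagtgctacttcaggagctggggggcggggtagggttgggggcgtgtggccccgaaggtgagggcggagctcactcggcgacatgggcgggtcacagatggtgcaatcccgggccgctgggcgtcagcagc

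The libraries held 13206163 to 32585987 expected counts in genes, with the lowest totals in the late 2-cell A-485 pair. Levels are given as FPKM, the authors' fragments per kilobase of effective length, scaled to library size, and changes as the log2 fold change that edgeR fitted to the counts, so a ratio of FPKM need not equal the fitted change. A gene was called when the quasi-likelihood test of edgeR gave a Benjamini-Hochberg adjusted p under 0.05, the fold was at least 2, and a group of the comparison reached a mean of 1 FPKM. Overlap of groups in FPKM is given as a description, and the share of all genes without overlap was not counted. Genes with little change could also lack overlap, such as Eif2ak1, encoding the kinase HRI, with TSA (log2 fold change 0.02, adjusted p = 0.897). Oocyte and zygote markers were at 1 FPKM or more in every group (12 of 12 genes), and their summed FPKM also moved with treatment at late 2-cell, at 1580 to 1600 with A-485 against 879 to 937 with DMSO and at 883 to 930 with TSA against 713 to 736. The summed FPKM of 10 markers of the 2-cell stage was 26.8 to 50.1 in zygotes, 713 to 801 in early 2-cell DMSO and 34.0 to 35.6 in early 2-cell A-485 libraries. At late 2-cell it was 106 to 109 with A-485 against 423 to 437 with DMSO, and 737 to 851 with TSA against 250 to 305, so this stage mark moved with treatment in 2-cell embryos, and the part of both marker lists in the results was not tested. Cumulus cell and sperm markers stayed low, at 2.91 to 14.2 and 1.25 to 18.9 summed FPKM over 12 and 6 genes. The sum of 7 fibroblast markers was 14.3 to 16.7 in late 2-cell A-485 libraries and 9.70 to 10.8 in TSA libraries, with Lum and Dcn at 0 counts in both groups, against 0.13 to 1.98 in the DMSO libraries of that stage. The sum of 7 erythroid markers was 45.3 to 47.0 in TSA libraries, where Hbb-bs and Hbb-bt were at 0, against 1.03 to 1.50 with DMSO. The part of these 2 lists in the results below was not tested.

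The levels of the 10 genes in DMSO embryos spanned a wide range. Atf4 and Ppp1r15a were the highest at late 2-cell, at 201 ± 15.4 and 247 ± 16.9 FPKM in the A-485 experiment (SD, n = 2), while Asns, Atf5, Chac1 and Atf3 stayed at 2.74 FPKM or less in every DMSO library. Early 2-cell DMSO embryos, compared with zygotes, had higher Sesn2, Trib3 and Ppp1r15a and lower Ddit3 and Ddit4. From early to late 2-cell, Sesn2, Trib3 and Ppp1r15a rose once more, now together with Atf4 and Ddit4.

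**Figure D1:**
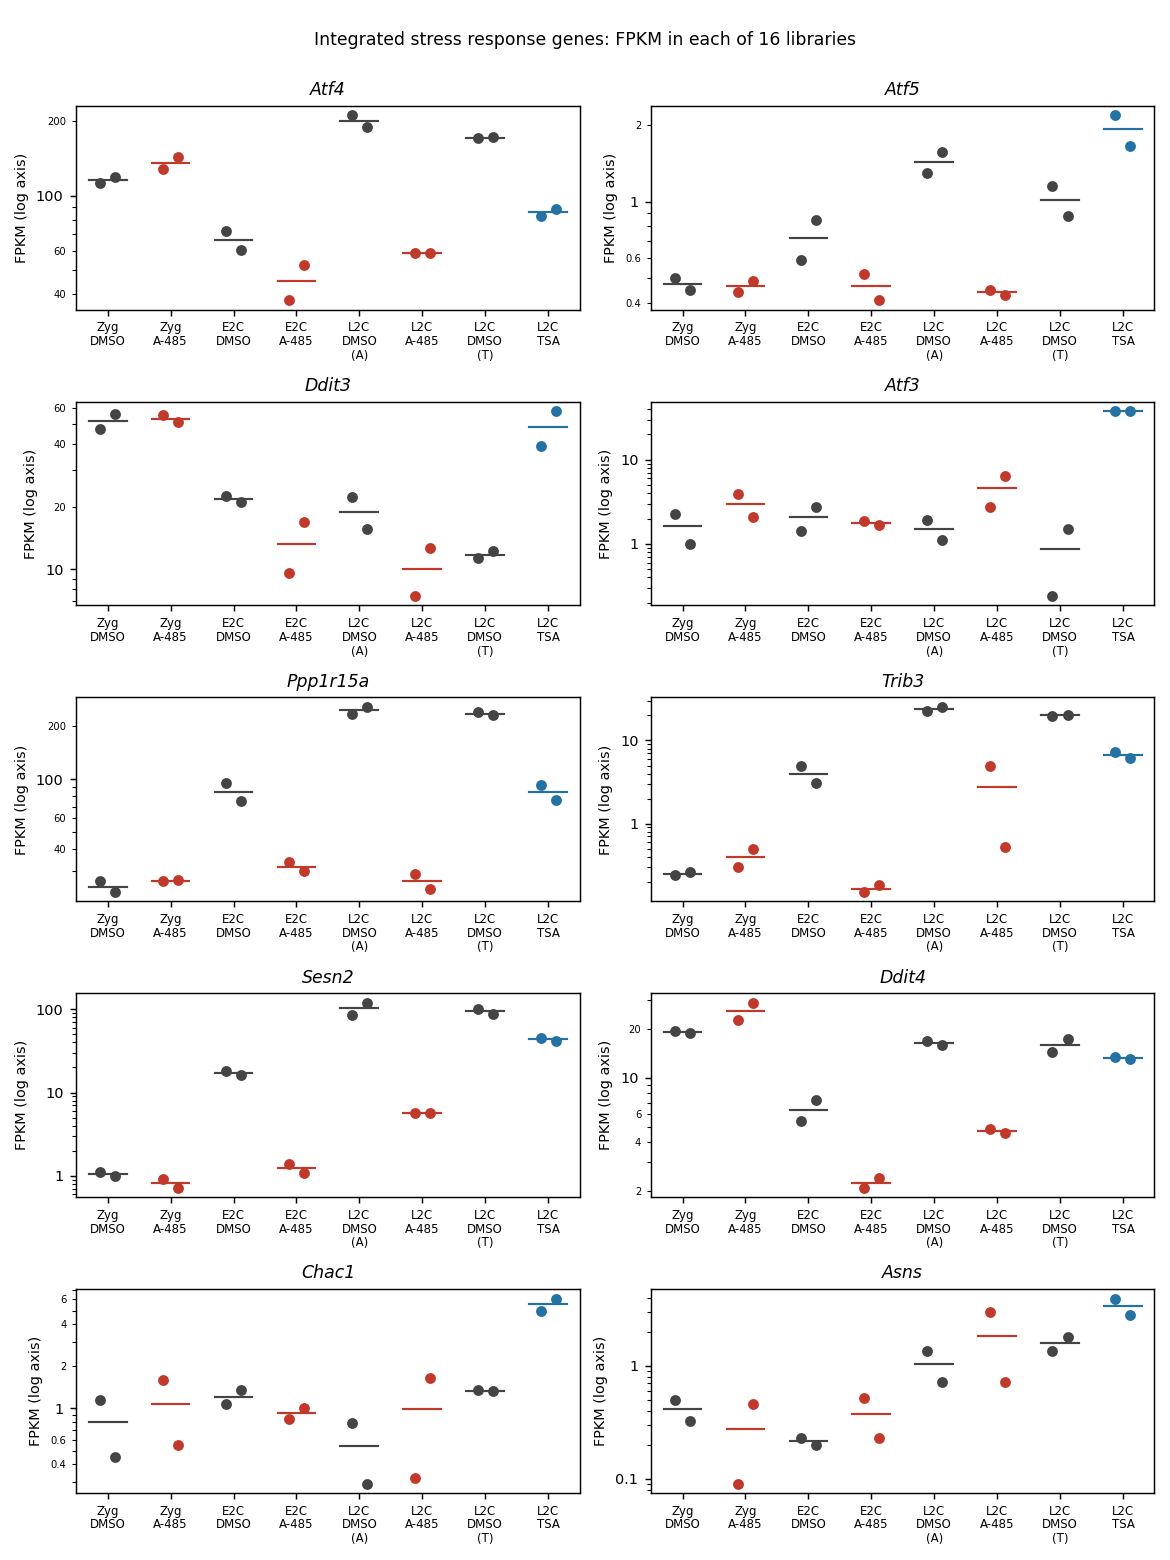
FPKM of the 10 genes in each library, on a log axis of its own for each gene. Points are libraries and lines are means of 2 libraries; Zyg is zygote, E2C early 2-cell, L2C late 2-cell, A and T the DMSO sets of the A-485 and TSA experiments, with DMSO in grey, A-485 in red and TSA in blue. Sesn2, Trib3 and Ppp1r15a climb through the DMSO groups and are lower with A-485 in 2-cell embryos, while Atf3 stands at 38.1 FPKM with TSA and at 6.39 or less in every other library.

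Among the transcription factors, Atf4 was at 112 and 119 FPKM in the 2 zygote DMSO libraries, then 72.2 and 60.2 in early 2-cell, and finally 212 and 190 in late 2-cell embryos. The groups did not overlap at either step. The fall to early 2-cell was under 2-fold (log2 fold change -0.70, SE 0.107, adjusted p = 0.000119), and the rise to late 2-cell was 2.99-fold (1.58, SE 0.132, adjusted p = 2.07e-06). Atf5, a bZIP factor that is itself a target of ATF4 and is likewise controlled in translation, was at 0.50 and 0.45 FPKM in zygotes, 0.59 and 0.85 in early 2-cell, and 1.3 and 1.56 in late 2-cell embryos. Its counts were 20 to 47 per library in these groups and neither step passed the test (adjusted p = 0.535 and 0.194).

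Ddit3, encoding CHOP, the factor tied to cell death after long stress, fell once. It was at 47.6 and 55.7 FPKM in zygotes and at 22.5 and 20.98 in early 2-cell embryos, without overlap, a fall of 2.11-fold (log2 fold change -1.08, SE 0.181, adjusted p = 0.000257). At late 2-cell it was at 22.3 and 15.6, overlapping the early 2-cell libraries (-0.21, SE 0.257, adjusted p = 0.573). Atf3, a bZIP factor that mostly represses, was low throughout, at 2.26 and 1.00, 1.44 and 2.74, and 1.91 and 1.11 FPKM at the 3 stages. Its groups overlapped at each step and neither change was called (adjusted p = 0.0617 and 0.22).

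Ppp1r15a, encoding the inducible eIF2 phosphatase subunit GADD34, was at 26.2 and 22.8 FPKM in zygotes, 95.3 and 75.1 in early 2-cell, and 235 and 259 in late 2-cell embryos. It rose at both steps without overlap, by 3.58-fold (log2 fold change 1.84, SE 0.103, adjusted p = 1.2e-08) and by 2.75-fold (1.46, SE 0.118, adjusted p = 1.55e-06). Trib3, a pseudokinase that binds ATF4 and CHOP and curbs their activity, was at 0.24 and 0.26, then 4.91 and 3.09, then 22.5 and 25.5 FPKM. Its steps were 17.0-fold (4.08, SE 0.419, adjusted p = 3.29e-06) and 5.95-fold (2.57, SE 0.234, adjusted p = 4.5e-06). Sesn2, a leucine sensor that restrains the growth kinase mTORC1, was at 1.12 and 0.99, then 18.2 and 16.3, then 85.4 and 120 FPKM. It rose 17.4-fold (4.12, SE 0.163, adjusted p = 6.46e-10) and then 5.90-fold (2.56, SE 0.145, adjusted p = 1.48e-07), so that both genes were among those that climbed at each step.

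Ddit4, encoding REDD1, a further brake on mTORC1, fell and then recovered. It was at 19.5 and 19.0 FPKM in zygotes, 5.43 and 7.25 in early 2-cell, and 16.9 and 15.9 in late 2-cell embryos. The fall was 2.85-fold (log2 fold change -1.51, SE 0.186, adjusted p = 1.78e-05) and the rise 2.58-fold (1.37, SE 0.224, adjusted p = 0.000434). Chac1, an enzyme that breaks down glutathione, was at 0.29 to 1.36 FPKM and was called at neither step (adjusted p = 0.381 and 0.255). Asns, asparagine synthetase, was at 0.20 to 1.35 FPKM in these groups, and its step to late 2-cell missed the threshold (2.1, SE 0.827, adjusted p = 0.0715).

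Over the first step, 3 of the 10 genes rose and 2 fell, where 11.2% and 14.9% of 20106 tested genes were called higher and lower. Over the second, 5 rose and 0 fell, where 15.9% and 8.92% of 20326 were called. Median log2 fold changes of the 10 genes were 0.63 and 1.41, against 0.077 and -0.025 over all genes tested. With scaling by the genes encoded in mitochondria, the median change of expressed genes from zygote to early 2-cell was -1.3 against 0.046. On that scale 1270 of 20106 genes were called higher and 8196 lower. Sesn2, Trib3, Ddit3 and Ddit4 kept their calls there, Atf4 passed the fold limit downward (-2.04), and Ppp1r15a kept its direction but not its call (0.51).

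**Figure D2:**
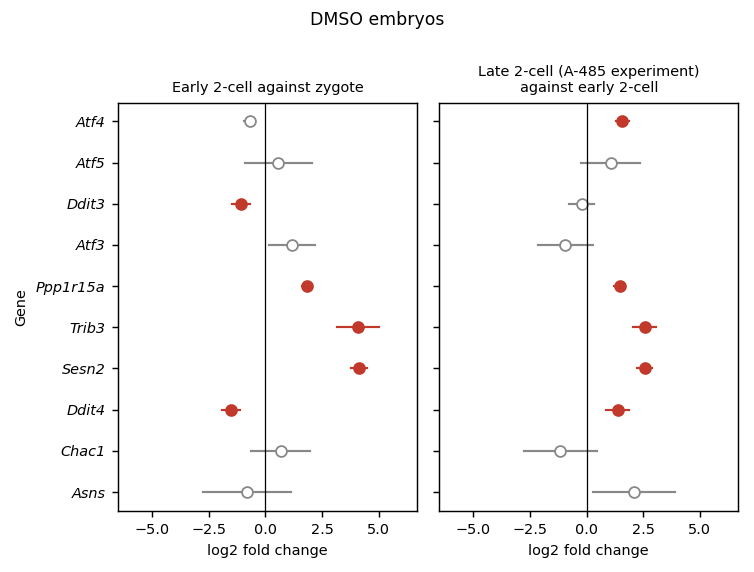
Log2 fold change with its 95% interval for the 10 genes between stages of DMSO embryos, from edgeR on 2 against 2 libraries. Filled points were called; 5 genes are filled in each panel, and Ddit4 switches from -1.51 to 1.37 while Sesn2, Trib3 and Ppp1r15a lie on the right in both.

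In zygotes, exposed to A-485 at the time they were taken, none of the 10 genes was called by edgeR or by DESeq2, and 2 of them had an unadjusted p under 0.05. Those were Ddit4, at 22.8 and 29.1 FPKM with A-485 against 19.5 and 19.0 with DMSO (log2 fold change 0.43, SE 0.128, adjusted p = 0.75), and Atf4, at 128 and 143 against 112 and 119 (0.22, SE 0.0744, adjusted p = 0.83). Of 18258 genes tested, 0.00548% were called higher and 0.0657% lower. The 95% interval of the change was within -0.16 and 0.71 for Atf4, Ddit3, Ppp1r15a and Ddit4, and reached from -2.47 to 1.29 for Asns, which had 5 to 27 counts per library.

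At early 2-cell, at the end of the exposure, Sesn2, Trib3, Ppp1r15a and Ddit4 were lower with A-485. Sesn2 was at 1.38 and 1.10 FPKM against 18.2 and 16.3 with DMSO, 13.8-fold lower (log2 fold change -3.78, SE 0.176, adjusted p = 2.83e-08). Trib3 was at 0.15 and 0.18 against 4.91 and 3.09, on 6 and 8 counts against 193 and 124 (-4.56, SE 0.485, adjusted p = 2.75e-05). Treated and DMSO libraries did not overlap for either gene, and treated Sesn2 overlapped its zygote DMSO level. Ppp1r15a was at 33.8 and 30.0 FPKM against 95.3 and 75.1 (-1.48, SE 0.104, adjusted p = 9.6e-07). Ddit4 was at 2.09 and 2.41 against 5.43 and 7.25 (-1.47, SE 0.283, adjusted p = 0.00419), below the zygote level from which it had already fallen in DMSO embryos.

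The transcription factors were not called at this stage. Atf4, at 37.8 and 52.4 FPKM with A-485 against 72.2 and 60.2, did not overlap and passed the adjusted p but not the fold (-0.55, SE 0.144, adjusted p = 0.0259). Ddit3 was at 9.64 and 16.8 against 22.5 and 20.98 (-0.85, SE 0.277, adjusted p = 0.0763), and without the second A-485 library it would be called (-1.26, adjusted p = 0.0104). Atf3, at 1.86 and 1.68 FPKM against 1.44 and 2.74, overlapped in FPKM but not in counts, which were 21 and 33 against 55 and 67. Its change, fitted to counts, was not called (-1.25, SE 0.505, adjusted p = 0.155), and Chac1, Asns and Atf5 had adjusted p of 0.732 or more. In all, 4 of the 10 genes were lower and 0 higher, with a median log2 fold change of -1.05, where 7.9% of 20872 genes were called lower, 0.402% higher, and the median was 0.0037.

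Late 2-cell embryos that had been exposed to A-485 had lower Atf4 and less of 5 other genes, and higher Atf3. Atf4 was at 58.9 and 58.7 FPKM against 212 and 190 with DMSO, 3.84-fold lower (log2 fold change -1.94, SE 0.122, adjusted p = 1.88e-07). Ppp1r15a was at 28.9 and 23.8 against 235 and 259, 9.50-fold lower (-3.25, SE 0.123, adjusted p = 9.12e-09), which overlapped its zygote DMSO level. Sesn2, at 5.72 and 5.73 against 85.4 and 120, was 20.4-fold lower (-4.35, SE 0.152, adjusted p = 7.31e-09).

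Trib3 was lower as well, on 42 and 14 counts with A-485 against 948 and 894 (log2 fold change -4.62, SE 0.396, adjusted p = 2.83e-06). The change was -3.96 without the second A-485 library and -5.71 without the first, a range that holds the change of Sesn2. Its FPKM were 4.92 and 0.52 against 22.5 and 25.5, and the gap between the A-485 libraries is wider in FPKM than in counts, FPKM being divided by the effective length that RSEM assigns in each library. Ddit4 was at 4.83 and 4.56 FPKM against 16.9 and 15.9 (-2.01, SE 0.259, adjusted p = 8.03e-05). Ddit3 was at 7.43 and 12.7 against 22.3 and 15.6, without overlap but near the threshold (-1.09, SE 0.383, adjusted p = 0.0434). That call was lost with DESeq2, with scaling to total counts and without any of 3 of the 4 libraries (both DMSO libraries and the first A-485 library), where the change ranged from -0.78 to -1.20.

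Atf3 went the other way, at 2.73 and 6.39 FPKM with A-485 against 1.91 and 1.11 with DMSO (log2 fold change 1.67, SE 0.566, adjusted p = 0.039). The groups did not overlap. Its call was lost with DESeq2 (adjusted p = 0.0504), without the first DMSO library (1.32, adjusted p = 0.15), without the second A-485 library (1.51, adjusted p = 0.113), and with mitochondrial scaling (0.68, adjusted p = 0.391). Atf5 was at 0.45 and 0.43 against 1.3 and 1.56, on 9 and 10 counts with A-485 (-1.89, SE 0.772, adjusted p = 0.0773), and Chac1 and Asns had overlapping groups.

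In this comparison 6 of the 10 genes were lower and 1 higher, where 16.8% of 22822 genes were called lower and 10.5% higher. The median log2 fold change of the 10 was -1.92 against 0.28 over all genes tested. The share of mitochondrially encoded genes was 5.35 to 5.43% of counts with A-485 and 2.35 to 2.44% with DMSO, and scaling to them moved the median of expressed genes from 0.051 to -0.93. On that scale 7 of the 10 were lower and 0 higher, where 6874 and 1177 of 22822 genes were called lower and higher.

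An interaction term over 8 libraries tested whether the 2 stages responded unequally to A-485. It differed for Atf4 (log2 difference of effects, late minus early, -1.302, SE 0.192, adjusted p = 1.39e-05), for Ppp1r15a (-1.68, SE 0.167, adjusted p = 3.8e-08) and, upward, for Atf3 (3.01, SE 0.831, adjusted p = 0.011), whose call was lost on the mitochondrial scale (1.94) and without the first early 2-cell A-485 (2.74) or the first late 2-cell DMSO library (2.43). Of 25141 genes, 7.6% were called upward and 7.38% downward, and the median was 0.44. For Sesn2 the difference was -0.49 (95% interval -0.94 to -0.04, adjusted p = 0.131), and for Trib3 0.02 (-1.29 to 1.33), the latter an interval that spans more than 2-fold in either direction. On the mitochondrial scale Sesn2 (-1.54, adjusted p = 1.05e-07) and Ddit4 (-1.5, adjusted p = 0.00837) were called by edgeR as well, so that 4 genes were called downward there and 0 upward. On that scale 5380 of the 25141 genes were called downward and 947 upward.

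**Figure D3:**
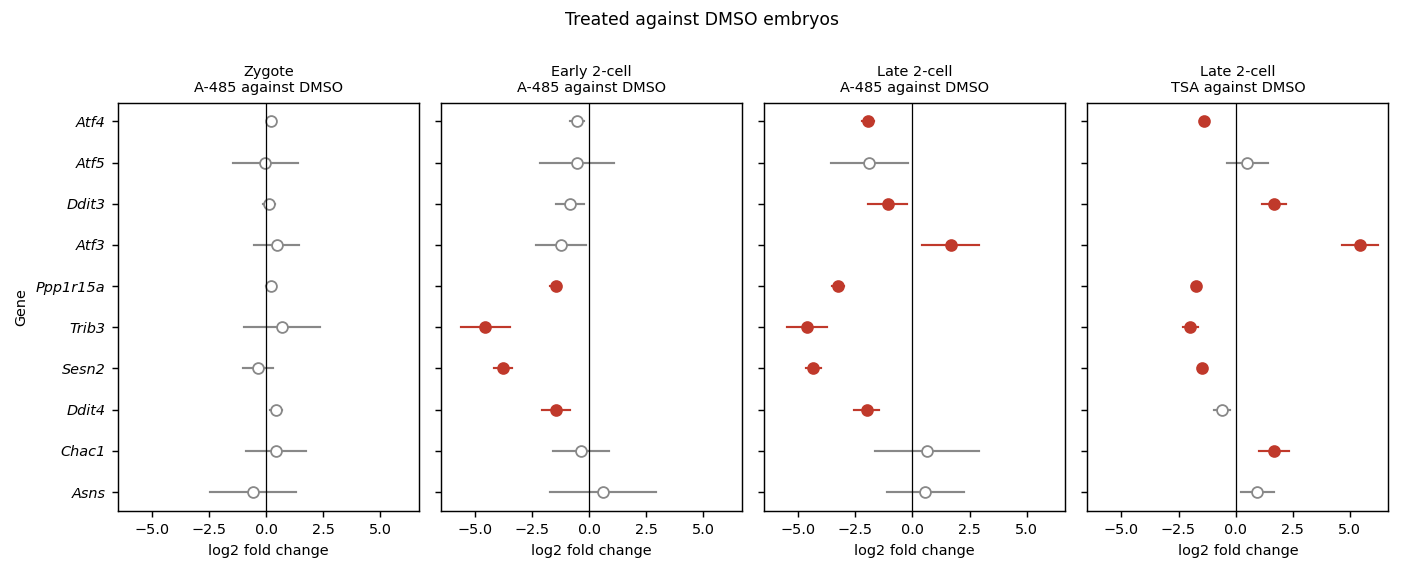
Log2 fold change with its 95% interval for the 10 genes in each treatment comparison, from edgeR on 2 against 2 libraries. Filled points were called; none is filled in zygotes, 4 at early 2-cell, and 7 in each late 2-cell panel, where Atf3 is to the right of 0 with both inhibitors and Ddit3 is at -1.09 with A-485 and 1.67 with TSA.

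TSA split the 10 genes at late 2-cell, with higher Atf3, Ddit3 and Chac1 and lower Atf4, Ppp1r15a, Trib3 and Sesn2. Atf3 was at 38.1 FPKM in both TSA libraries against 0.24 and 1.51 with DMSO, 43.7-fold higher (log2 fold change 5.45, SE 0.36, adjusted p = 3.99e-07). Its DMSO libraries held 9 and 25 counts, and the log2 fold change was 4.85 without the first of them and 6.41 without the second. Ddit3 was at 39.3 and 57.9 against 11.3 and 12.3 (1.67, SE 0.237, adjusted p = 0.000219), which overlapped its zygote level. Chac1 was at 4.99 and 6.09 against 1.35 and 1.33 (1.69, SE 0.302, adjusted p = 0.00105), and its adjusted p missed the threshold when all 16 libraries shared 1 fit.

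On the lower side, Atf4 was at 83.2 and 88.7 FPKM with TSA against 171 and 173 (log2 fold change -1.37, SE 0.0762, adjusted p = 1.89e-07). Ppp1r15a was at 93.4 and 76.5 against 241 and 232 (-1.72, SE 0.0766, adjusted p = 4.05e-08), and Trib3 was at 7.27 and 6.12 against 20.0 and 20.4 (-1.98, SE 0.147, adjusted p = 1.66e-06). Sesn2 was at 44.7 and 42.0 against 100.2 and 87.8 (-1.47, SE 0.0817, adjusted p = 1.85e-07). Each of these 4 genes kept its call under the other scalings.

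Of the remaining genes, Ddit4 was at 13.5 and 13.1 FPKM against 14.4 and 17.4 and passed the adjusted p but not the fold (log2 fold change -0.61, SE 0.156, adjusted p = 0.00897). Asns was at 3.92 and 2.79 against 1.35 and 1.80 (0.96, SE 0.328, adjusted p = 0.0373), just under 2-fold, and was called with scaling to total counts (1.32) and without the second TSA library (1.22). Atf5 was at 2.19 and 1.66 against 1.15 and 0.88 (0.52, SE 0.408, adjusted p = 0.344). With 3 genes higher and 4 lower, the 10 stood beside 13.8% and 13.9% of 23429 tested genes, and their median log2 fold change was -0.05 against 0.13 over all genes.

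The 2 inhibitors were compared at late 2-cell through the difference of their effects, each against its own DMSO set, at their different doses and exposure times. TSA minus A-485 was called upward for 7 of the 10 genes and downward for 0, where 10.8% of 26554 genes were called upward and 2.7% downward. The genes called were Atf3 (log2 difference 3.87, SE 0.585, adjusted p = 0.000113), Sesn2 (2.99, SE 0.176, adjusted p = 2.12e-09) and Ddit3 (2.86, SE 0.431, adjusted p = 0.000117). Also called were Trib3 (2.75, SE 0.427), Ppp1r15a (1.63, SE 0.15) and Ddit4 (1.51, SE 0.293), with adjusted p of 0.00121 or less, and Atf5 was at the threshold (2.52, SE 0.847, adjusted p = 0.0492), a call lost without any 1 of the 8 libraries and with DESeq2. Upward includes a smaller fall with TSA than with A-485, as for Sesn2 (-1.47 against -4.35) and Trib3 (-1.98 against -4.62). The same held for Ppp1r15a (-1.72 against -3.25) and Ddit4 (-0.61, not called, against -2.01). For Atf4 the difference passed the adjusted p but was under 2-fold (0.68, SE 0.148, adjusted p = 0.00303), and on the mitochondrial scale the fold limit was passed too.

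The 2 late 2-cell DMSO sets, from separate experiments, differed for none of the 10 genes by edgeR or DESeq2, with 1 at an unadjusted p under 0.05. That gene was Ddit3, at 11.3 and 12.3 FPKM in the TSA experiment against 22.3 and 15.6 (log2 fold change -0.59, SE 0.255, adjusted p = 0.338). Of 20647 genes, 1.19% were called higher and 0.136% lower in the TSA experiment. Sesn2, Ppp1r15a and Ddit4 overlapped between the sets, with 95% intervals of the log2 change from -0.37 to 0.18, -0.23 to 0.18 and -0.38 to 0.38. The low genes were less well bounded. Chac1 was 2.52-fold higher in the TSA experiment without overlap (interval -0.031 to 2.7, adjusted p = 0.385), and Atf3 was 2.17-fold lower with overlap (-2.71 to 0.48, adjusted p = 0.556).

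Ordered by level, the late 2-cell DMSO sets were highest for Atf4, Ppp1r15a, Trib3 and Sesn2, and the late 2-cell TSA group was highest for Atf3, Chac1, Asns and Atf5, though its Asns overlapped that of late 2-cell A-485. Ddit3 was highest in zygotes, and there the zygote A-485 (53.1 ± 2.67 FPKM), zygote DMSO (51.6 ± 5.71) and late 2-cell TSA groups (48.6 ± 13.1, SD, n = 2 each) overlapped. Ddit4 was highest in zygotes with A-485 (26.0 ± 4.45), ahead of zygote DMSO (19.2 ± 0.382). For Chac1 and Atf3, all groups below late 2-cell TSA overlapped their neighbour. Over the 8 group means of log2(FPKM + 0.1), the highest correlations were of Sesn2 with Trib3 (Pearson r 0.98) and with Ppp1r15a (0.94). Atf4 correlated with Sesn2 at 0.43 and with Trib3 at 0.50, and Ddit3 with them at -0.32 and -0.34. These values share libraries and stages and carry no test.

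Genes with a course like that of Atf4 and Ddit3 were looked up over the same 8 means among 9429 genes that reached 10 FPKM in a group. Atf4 was closest to Rpl22 (r = 0.992), a ribosomal protein gene, Eif3g (0.989), a subunit of an initiation factor, and Pdrg1 (0.989). Ddit3 was closest to Bcar1 (0.983), an adaptor of focal adhesions, Mlx (0.972), a bHLH factor, and Tuba4a (0.972), an alpha tubulin. The 8 points share their libraries, and these likenesses are descriptions.

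The other genes of the pathway were followed in 7 lists of 4 to 19 genes. The counts called in these lists stand beside the shares of all genes tested, which were 7.9% lower and 0.402% higher with A-485 at early 2-cell, 16.8% lower and 10.5% higher with A-485 at late 2-cell, and 13.9% lower and 13.8% higher with TSA. In DMSO embryos these shares were 14.9% lower and 11.2% higher from zygote to early 2-cell, and 8.92% lower and 15.9% higher from early to late 2-cell. The 4 eIF2 kinases did not move as a group. Eif2ak3, encoding PERK, the kinase of the endoplasmic reticulum (ER), rose from zygote to early 2-cell (log2 fold change 2.18, adjusted p = 2.26e-06, or 0.85 on the mitochondrial scale) and on to late 2-cell (2.97, adjusted p = 1.04e-07). It was lower with A-485 at early 2-cell (-1.06, SE 0.201, adjusted p = 0.00359) and late 2-cell (-2.58, SE 0.149, adjusted p = 1.1e-07), and with TSA (-1.01, SE 0.0839, adjusted p = 3.49e-06), where scaling to total counts left it under the fold limit (-0.66). Eif2ak2, encoding PKR, the kinase activated by double-stranded RNA, was on 2 and 6 counts in late 2-cell DMSO libraries and on 149 in both A-485 libraries (5.55, SE 0.653, adjusted p = 2.34e-05). With TSA it was on 117 and 84 counts against 19 and 11 (2.81, SE 0.446, adjusted p = 0.000452).

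Eif2ak4, encoding GCN2, the sensor of uncharged tRNA, fell from early to late 2-cell (log2 fold change -1.35, adjusted p = 4.62e-06). At late 2-cell it was lower with A-485 (-1.12, SE 0.171, adjusted p = 0.00029), though under 2-fold when scaled to total counts (-0.92), and its change with TSA was 0.05 (SE 0.098, adjusted p = 0.751). Eif2ak1, encoding the haem-regulated kinase HRI, was 2-fold or more lower only between zygote and early 2-cell among these comparisons (-1.10, SE 0.102, adjusted p = 1.21e-06). In zygotes no kinase was called with A-485, and the largest change there was -0.11 (Eif2ak2, SE 0.819, adjusted p = 0.997).

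Most subunits of eIF2 and eIF2B, and Ppp1r15b of the constitutive phosphatase, were lower with both inhibitors at late 2-cell. With A-485, 9 of the 10 genes of this list were lower and 0 higher, led by Eif2b4 (log2 fold change -3.93, adjusted p = 2.32e-07), Eif2b5 (-3.52, adjusted p = 3.45e-07) and Eif2b2 (-2.91, adjusted p = 0.000595). TSA lowered 8 of 10 and raised 0, led by Ppp1r15b (-2.79, adjusted p = 7e-09), Eif2b4 (-2.68, adjusted p = 3.25e-08) and Eif2s1 (-2.28, adjusted p = 1.54e-08), the last encoding the eIF2 alpha subunit itself. Ppp1cb, a catalytic phosphatase subunit, was called with neither (-0.063, adjusted p = 0.712 with A-485, and -0.33, adjusted p = 0.00454 with TSA), and Eif2b2 was not called with TSA (-0.54, adjusted p = 0.0558). At early 2-cell A-485 lowered 2, Eif2b4 (-1.76, adjusted p = 0.00202) and Ppp1r15b (-1.41, adjusted p = 0.000439). In DMSO embryos 6 of the 10 rose from early to late 2-cell and 0 fell, led by Eif2b5 (2.99, adjusted p = 1.68e-07).

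Partners of ATF4 and CHOP among the bZIP factors were split. With TSA, Fos rose from 5 and 1 counts to 80 and 76 (log2 fold change 4.72, SE 0.72, adjusted p = 0.000147), Jun rose (4.58, SE 0.197, adjusted p = 3.13e-08) as did Cebpa (1.05, adjusted p = 0.00404, or 0.86 on the mitochondrial scale), and Jund fell (-1.60, adjusted p = 2.4e-05). Jun and Fos form the AP-1 factor. With A-485 at late 2-cell, Cebpd (4.37, SE 0.564, adjusted p = 8.73e-05) and Jun (2.68, SE 0.474, adjusted p = 0.00102) were higher, and Jund (-2.69, adjusted p = 6.28e-06) and Cebpa (-1.35, adjusted p = 0.0391) lower, so that 2 of 8 were called each way. At early 2-cell Fos alone of the 8 was called with A-485 (-2.52, adjusted p = 0.0311).

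Amino acid genes, the classic output of ATF4, mostly did not pass the test. With A-485, 2 of 19 were lower at early 2-cell, Psat1 of serine synthesis (log2 fold change -2.80, adjusted p = 0.00113) and Pck2, which was on 1 count in both A-485 libraries against 84 and 104. At late 2-cell 2 were lower, Slc7a5, a carrier of large amino acids (-3.21, adjusted p = 1.1e-06), and Psat1 (-3.20, adjusted p = 1.73e-07), and 2 were higher, Slc38a2, a carrier of neutral amino acids (3.08, adjusted p = 0.0023), and Psph (2.06, adjusted p = 0.0182). TSA raised 4 of 18, led by Slc38a2 (4.80, adjusted p = 5.35e-06), Pycr1 of proline synthesis (2.49, adjusted p = 0.00672) and Slc7a1 (1.19, adjusted p = 0.000408), and lowered Psat1 (-1.37, adjusted p = 9.77e-07). In DMSO embryos Psat1 rose at both steps (6.23 and 2.45).

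Of 13 genes of tRNA charging and export, A-485 lowered 9 at late 2-cell and raised 0 (16.8% and 10.5% of all genes tested), led by Mars1 (log2 fold change -3.61, adjusted p = 4.34e-05), Yars (-3.04, adjusted p = 4.9e-05) and Aars (-2.40, adjusted p = 2.55e-07). Cars and Tars were called lower though their groups overlapped in FPKM, and Nars was at the fold limit (-1.002). At early 2-cell A-485 lowered Xpot, the tRNA export receptor (-1.57, adjusted p = 0.00587), and Aars (-1.36, adjusted p = 0.000179). TSA lowered 4 and raised 0, led by Xpot (-2.39, adjusted p = 1.23e-07) and Eprs (-2.17, adjusted p = 2.56e-08). From early to late 2-cell in DMSO embryos, 7 rose and 2 fell, with Yars the most raised (3.00, adjusted p = 1.02e-05) and Sars the most lowered (-1.46, adjusted p = 0.000299).

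Secreted and stress factors rose with TSA in 8 of 16 and fell in 1, where 13.8% and 13.9% of all genes tested were called. Vegfa, the vascular growth factor, was on 2327 and 2320 counts against 253 and 307 (log2 fold change 3.11, SE 0.132, adjusted p = 3.48e-08), and Ndrg1 (2.64, adjusted p = 6.05e-07) and Vldlr (2.61, adjusted p = 0.000222) were higher, while Map1lc3b, which encodes the autophagosome protein LC3B, was lower (-2.99, adjusted p = 5.94e-09). With A-485 at late 2-cell, Vldlr (2.64, adjusted p = 0.000787) and Nupr1 (1.38, adjusted p = 0.0304) were higher and Map1lc3b (-3.14, adjusted p = 2.99e-08) and Cdkn1a (-1.12, adjusted p = 0.0328) lower of 14 tested. Nupr1 missed the fold limit on the mitochondrial scale (0.41) and Cdkn1a with scaling to total counts (-0.92). Cdkn1a, the cell cycle inhibitor p21, is also a p53 target. At early 2-cell A-485 lowered 3 of 14, Vegfa (-2.57, adjusted p = 0.00044), Cdkn1a (-1.51, adjusted p = 0.019) and Nupr1, which had 0 and 1 counts against 24 and 48.

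Among 19 measured genes of ER folding and the unfolded protein response, A-485 lowered 5 at early 2-cell and 11 at late 2-cell, raising 0 and 1. Dnajb9, an ER co-chaperone, was lower at both stages (log2 fold change -2.06, adjusted p = 8.34e-07, and -2.65, adjusted p = 4.3e-08), as the most changed of the early stage. At late 2-cell Dnajb11 (-2.72, adjusted p = 4.43e-07) and Hyou1 (-2.65, adjusted p = 6.23e-08) were lower and Herpud1 was higher, on 20 and 67 counts against 8 and 5 (3.08, SE 0.867, adjusted p = 0.0172). TSA raised 2, Herpud1, on 110 and 56 counts against 0 and 4 (adjusted p = 0.000406), and Hsp90b1, the chaperone GRP94 (1.09, adjusted p = 7.26e-07, or 0.92 on the mitochondrial scale), and lowered 2, Dnajb9 (-1.93, adjusted p = 1.93e-08) and Pdia3 (-1.91, adjusted p = 3.4e-08). From early to late 2-cell in DMSO embryos 7 rose and 0 fell, led by Dnajb11 (2.69, adjusted p = 1.98e-07).

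The step from zygote to early 2-cell in DMSO embryos went mostly downward in the translation lists. Of the tRNA list, 8 of 13 fell and 2 rose, with Cars (log2 fold change -2.58, adjusted p = 1.14e-07) and Eprs (-2.28, adjusted p = 4.5e-09) lower and Xpot higher (5.18, adjusted p = 3.17e-07). Of the ER list, 9 of 19 fell, led by Atf6, an ER stress sensor (-2.33, adjusted p = 2.62e-08), and only Dnajb9 rose (3.10, adjusted p = 4.47e-09). Of the eIF2 list, 4 of 10 fell and 2 rose, the latter being Ppp1r15b (1.18) and Ppp1cb (1.13), which turned to -0.16 and -0.21 on the mitochondrial scale. Secreted factors rose in 5 of 14, among them Ndrg1 (5.10, adjusted p = 1.17e-07), and 1 fell, Stc2 (-1.40, adjusted p = 0.000243).

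**Figure D4:**
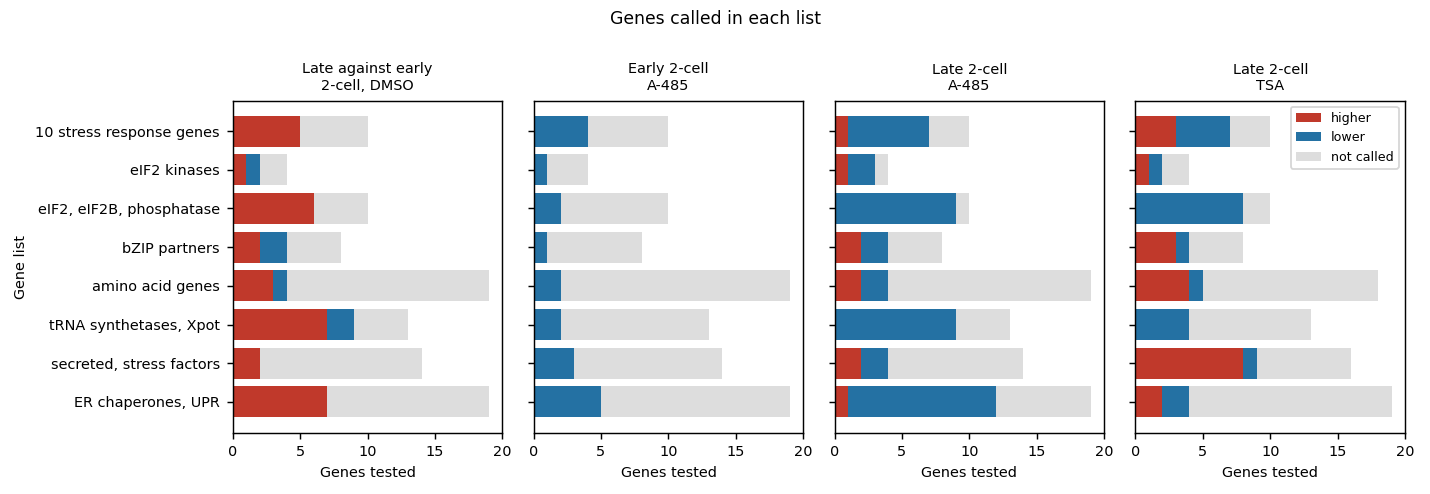
Number of genes called higher (red), called lower (blue) and not called (grey) in the 10 stress response genes and the 7 other lists, in 4 comparisons. The bars end at the number of genes tested; the eIF2 and tRNA lists are mostly red from early to late 2-cell in DMSO embryos and hold no red with A-485 or TSA at late 2-cell, while the secreted factors show 8 higher with TSA.

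Across all these lists, A-485 called 16 of 87 genes lower and 0 higher at early 2-cell, with a median log2 fold change of -0.30, and 37 lower and 8 higher at late 2-cell, with a median of -0.76. Of all genes tested, 7.9% and 0.402% were called at the early stage and 16.8% and 10.5% at the late stage. On the mitochondrial scale the late counts were 53 lower and 5 higher, where 6874 and 1177 of all 22822 genes were called. With total counts they were 30 and 10, where 3435 and 2939 of all genes were called. TSA called 18 of 88 in each direction, beside 13.9% lower and 13.8% higher of all genes, with a median of 0.05. With scaling to total counts it called 16 lower and 22 higher, where 2384 and 4108 of all 23429 genes were called. From zygote to early 2-cell in DMSO embryos 15 of 87 rose and 26 fell, and from early to late 2-cell 28 rose and 6 fell. The A-485 effect differed between stages for 9 upward and 20 downward of 88 genes, beside 7.6% and 7.38% of all genes. TSA minus A-485 was called upward for 29 and downward for 2 of 89, beside 10.8% and 2.7%. Upward here includes genes that TSA lowered less than A-485 did, such as Eif2b4 (-2.68 with TSA and -3.93 with A-485). In zygotes with A-485 and between the 2 DMSO sets, 0 of 81 and 0 of 86 were called by edgeR.

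Open chromatin at the starts of the 10 genes was read from the ATAC peak lists of the late 1-cell and the early 2-cell stage in the A-485 experiment, each 1 list over both replicates and so without replicate values. A peak within 1 kb of an annotated start (positions taken as GRCm38) was listed for 5 of the 10 genes at late 1-cell with DMSO and 4 with A-485, and for 8 and 6 at early 2-cell. Over 21951 protein-coding genes the same window held a peak for 26.2% and 24.7% at late 1-cell, and for 31.7% and 40.9% at early 2-cell. Atf4, Ddit3, Sesn2 and Atf5 had a peak in all 4 lists, and Atf3 in none. Atf5 overlaps Nup62 and Il4i1 on the opposite strand, and Ddit3 overlaps Mars. Which of the overlapping genes these peaks belong to was not tested.

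The start of Atf4, printed earlier, had its early 2-cell DMSO peak at chr15:80254761-80255726, with a fold enrichment of 11.2 over background and the summit 146 bases before the start. With A-485 its peak had a fold enrichment of 8.26. At Sesn2 the peak was listed with A-485 at early 2-cell (fold enrichment 10.1) as with DMSO (6.61), while its RNA was 13.8-fold lower. Trib3 gained a listed peak only at early 2-cell among these stages, with DMSO (5.29) and with A-485 (6.85).

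Ddit4 had a peak with DMSO at late 1-cell (6.35) and early 2-cell (5.80) and none listed with A-485 at either stage. Ppp1r15a and Chac1 had one only with DMSO at early 2-cell (5.11 and 5.34), the one at Ppp1r15a lying 564 bases past its start, and Asns only with A-485 at early 2-cell (9.05). The AP-1 letters of Ddit3 lay inside its peak in all 4 lists. The CARE core of Chac1 lay inside its early 2-cell DMSO peak and that of Asns inside its early 2-cell A-485 peak. The lists held 27693 peaks for early 2-cell DMSO and 13712 for A-485, and a missing line says only that no peak passed the authors' reproducibility limit, so these differences carry no test.

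**Figure D5:**
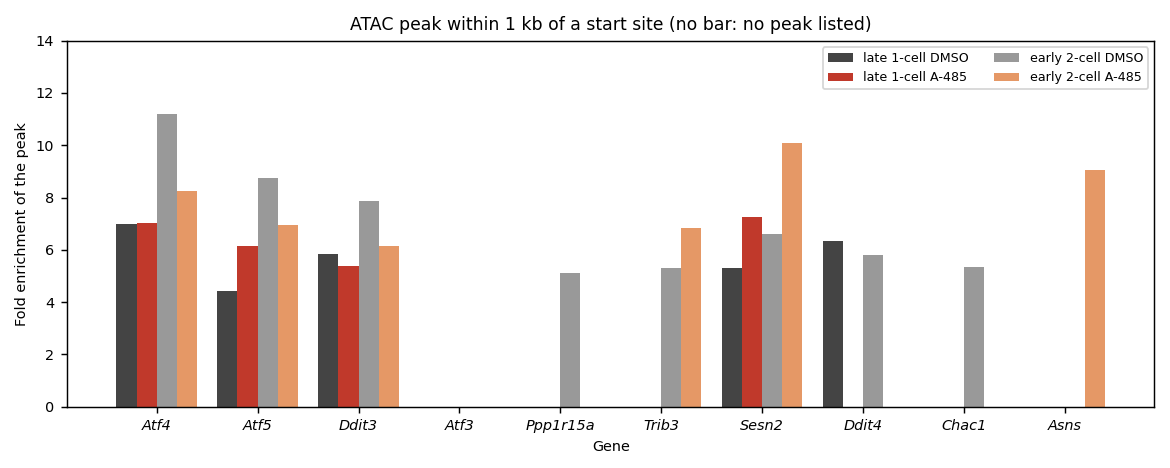
Fold enrichment of the listed ATAC peak with the lowest p within 1 kb of a start site of each of the 10 genes, in the 4 peak lists. A missing bar means that no peak was listed; Atf4 reaches 11.2 at early 2-cell with DMSO, Sesn2 10.1 with A-485, and Atf3 has no bar.

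Gene positions (GRCm38, GENCODE M21) bear on 5 of these genes. Atf3 (chr1:191170296-191218039, minus strand) overlaps Gm24748 by 108 bases on the opposite strand. Ddit3 (chr10:127290774-127296288, plus strand) overlaps Mars by 68 bases on the opposite strand, Atf5 (chr7:44812256-44816658, minus strand) overlaps Nup62 and Il4i1, and Ppp1r15a (chr7:45522916-45526268, minus strand) overlaps Tulp2 by 717 bases. Sesn2 (chr4:132492032-132510501, minus strand) overlaps Gm12981 over 6089 bases on its own strand. The kit keeps strand, whether counting used it was not given in the sources used here, and reads of such partners may then be mixed. A second Ddit3 identifier held at most 2.19 counts in a library and was not added.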

How the data were processed

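Total RNA-seq of 16 libraries in 8 groups of 2 and ATAC peak lists of 4 groups were used; the H3K27ac samples were not used here. For RNA, the authors trimmed reads with Trimmomatic 0.39, mapped them to GRCm38 with STAR 2.7.8a and quantified genes with RSEM 1.3.1. The deposited values are the expected count of each gene, which is not normalized, the FPKM and the TPM, both scaled to library and effective length. For ATAC, the authors ran the ENCODE pipeline and deposited for each peak a fold enrichment (ratio) with −log10 p and −log10 q values, in 1 list per stage and treatment over both replicates.

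Expected counts were rounded and tested with edgeR 4.0.16 in R 4.3.3 (TMM, quasi-likelihood F test, Benjamini-Hochberg over every gene that reached 10 counts in sum across a comparison). SE and 95% intervals are on the log2 scale. Effects of 2 comparisons were compared as an interaction over 8 libraries. DESeq2 1.42.0, other scalings, no filter, 1 fit of all libraries, a replicate block, the adjusted p alone and leaving out each library were alternatives. The fits were tested on simulated data. Replicates of a group differed by 8.99 to 18 times counting noise (chi-square per degree of freedom), which does not tell technical repeats from separate embryos.

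The 10 genes and the lists were chosen with earlier results of these data known. All 10 are named in every comparison; of the other lists, the kinases and up to 3 called genes per direction with the largest change. Promoter sequences are from RefSeq (GRCm38.p6, all 10 genes matched), and peaks were taken as GRCm38, the build named for ATAC not being given in the sources used here. TPM values were read but not tested. The single level of 1 marker gene is not reported here.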

Additional observations from a re-analysis of the deposited data

Results flagged for a closer look

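The effect of A-485 differed between the 2-cell stages by the interaction test of edgeR for 3 of the 10 genes. The difference of effects, late minus early, was -1.302 for Atf4, -1.685 for Ppp1r15a and 3.013 for Atf3 on the log2 scale. On the mitochondrial scale Atf3 lost its call (1.936) and Sesn2 (-1.545) and Ddit4 (-1.499) gained one, and Atf3 also lost it without the first early 2-cell A-485 or the first late 2-cell DMSO library. On that scale 5380 of all 25141 genes were called downward and 947 upward. Beside these differences stand the sums of the 2-cell stage markers, which moved with A-485 at both stages. The part of stage in these differences was not tested. Stage and a possible batch cannot be told apart here.

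The effect of TSA differed from that of A-485 at late 2-cell for 7 of the 10 genes by the same test, each against its own DMSO set. On the log2 scale the difference was 3.867 for Atf3, 2.988 for Sesn2, 2.864 for Ddit3, 2.754 for Trib3, 2.523 for Atf5, 1.634 for Ppp1r15a and 1.51 for Ddit4. For Sesn2, Trib3, Ppp1r15a and Ddit4 both changes were downward, and the one with TSA was the smaller. The call of Atf5 was lost without any 1 of the 8 libraries, with DESeq2, with no filter, in the fit of all libraries and with the replicate block. The inhibitors were given at different doses and over different hours, and the inhibitor, its dose and its hours cannot be told apart.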

How the results depend on the processing

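No gene among the 10 that was called changed direction under any alternative. Among values of single genes under the alternatives, 898 kept direction and side of the threshold, 12 passed it anew, 27 lost it and 43, all of genes not called, changed sign. With 2 libraries a group and 5 to 89 counts in most Asns, Atf5 and Atf3 libraries, small changes of these genes were not detectable. The cause of the changes below was not tested.

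With the adjusted p alone, other pathway genes called numbered 58 with TSA, 67 from zygote to early 2-cell and 3 between the DMSO sets, against 36, 41 and 0. Between the DMSO sets 1 was called with mitochondrial scaling, with no filter and with the block, and 0 to 1 without 1 library. Mitochondrial scaling gave 50 in the comparison of A-485 effects between stages, against 29. Over all genes tested it called 947 upward and 5380 downward there, against 1911 and 1855. On that scale Atf5 turned to 0.23 in zygotes, Chac1 to -0.29 and Asns to -0.38 with A-485 at late 2-cell, and Atf3 to -0.14, Chac1 to -0.61 and Atf5 to -0.75 from zygote to early 2-cell. The difference of A-485 effects between stages turned for Trib3 to -0.041 with DESeq2, -1.04 with mitochondrial scaling, -0.029 with no filter and -0.11 in the fit of all libraries, and for Asns to -0.052, -0.95, -0.0019 and -0.0937. With no filter Ddit4 turned to 0.0023 between the DMSO sets.

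Leaving out 1 library changed the sign of genes not called. In zygotes Ddit3 ranged from -0.012 to 0.25, Chac1 from -0.54 to 1.22, Asns from -2.23 to 0.16 and Atf5 from -0.10 to 0.014. With A-485 at late 2-cell Chac1 ranged from -0.95 to 1.63 and Asns from -0.59 to 1.49. Between the DMSO sets Asns ranged from -0.028 to 1.41, Sesn2 from -0.30 to 0.12, Ppp1r15a from -0.12 to 0.065 and Ddit4 from -0.16 to 0.14. The difference between stages ranged from -0.60 to 0.22 for Ddit3, -1.07 to 0.61 for Trib3, -0.58 to 1.86 for Chac1 and -1.11 to 0.75 for Asns, and TSA minus A-485 from -0.40 to 1.67 for Asns. Ddit3 lost its fold limit from zygote to early 2-cell without the second zygote DMSO library (-0.96).

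Replicate numbers are shared across groups, but no label says that they mark a shared batch, and the correlation of same-numbered deviations was -0.0637 to 0.16. With a replicate block, 1 of the 10 lost its call, Atf5 in TSA minus A-485 (2.53), the difference between stages of Trib3 turned to -0.14, and counts of the 10 called stayed at 0, 4, 7 and 7 in the treatment comparisons.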
